A study of Mus musculus with 42 samples.

Results

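The data compare mouse embryonic stem cells (ESCs) in which the splicing factor ISY1 was or was not switched on, both grown in serum with leukaemia inhibitory factor (Lif). The cells are of the KH2-ISY1 line, an ESC line that carries a Flag-tagged ISY1 under a doxycycline-inducible promoter. The first library is from cells cultured in Serum/Lif without doxycycline (Dox) and the second from cells in the same medium with Dox. They are 2 of the 42 libraries of the study, and all 16753 genes of their table were compared. Both carry the transgene, and no line without it was given Dox, so the drug's own effects and those of the induced protein cannot be told apart. The labels give neither the dose nor the duration of Dox in this medium, nor the number of clones. The same table holds 6 further libraries of the line without Dox, taken on days 1, 2, 4, 8, 10 and 13 of embryoid body (EB) differentiation. A second table holds 4 pairs of the line with and without Dox, taken 24, 48, 72 and 96 h into the medium for epiblast-like cells (EpiLCs), the cell state that follows the naive one.

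ISY1 is a component of the spliceosome that works beside the Prp19 complex, and in mouse ESCs it has also been tied to the processing of primary microRNAs. Serum/Lif keeps ESCs self-renewing through STAT3, in a mixture of naive cells and cells further along. A cell's answer to low oxygen runs through the transcription factor HIF, whose alpha subunit is hydroxylated by EGLN enzymes in normal oxygen and then destroyed. HIF targets include glycolytic enzymes, glucose transporters, collagen hydroxylases and the EGLN genes themselves.

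With 1 library a side there is no replicate error and no test between these 2 libraries, so every difference below describes this pair. Values are normalised read counts, and a difference is that of log2(value + 1), with Dox minus without. A gene counts as higher or lower when its mean over both libraries is at least 10 and the difference is at least 2-fold. Intervals of a ratio are exact binomial 95% intervals and cover counting error only. The libraries held 23.84 M reads without Dox and 23.53 M with it, and 1 read was worth 0.227 and 0.238 units.

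Isy1 was 15.5-fold higher with Dox (95% counting interval 14.7 to 16.4). It stood at 328 without Dox and at 5096 with it, while the 7 libraries of the table without Dox lay between 286 and 474. The level with Dox was thus far outside the range without it. Reads from the transgene and from the resident gene cannot be told apart in these counts. The line listed as RP23-4F16.12, to which the sources give no gene name or role, went with it, at 63.6 without Dox and 2435 with it, a difference of 5.24. Its range without Dox was 63.6 to 135, and its level per Isy1 level was 0.194 without Dox and 0.478 with it. Whether the 2 lines share reads was not tested.

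Of the 14090 genes with a mean of at least 10, 142 (1.01%) were higher with Dox and 784 (5.56%) lower, 926 in all (6.57%). At 4-fold the counts were 7 higher and 114 lower. The median difference was -0.01 and the standard deviation over genes 0.54. Most of the lower genes were weakly expressed. The share lower was 15.5% among genes with a mean of 10 to 30, 6.67% between 30 and 100, and 1.73% from 1000 up. The share higher lay between 0.473% and 1.55% in the classes from 10 up. Genes without a read numbered 358 with Dox and 194 without it, against 90 to 194 in the 7 libraries without Dox, at near-equal depth in this pair. The part of this in the lower calls at low levels was not tested.

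**Figure D1:**
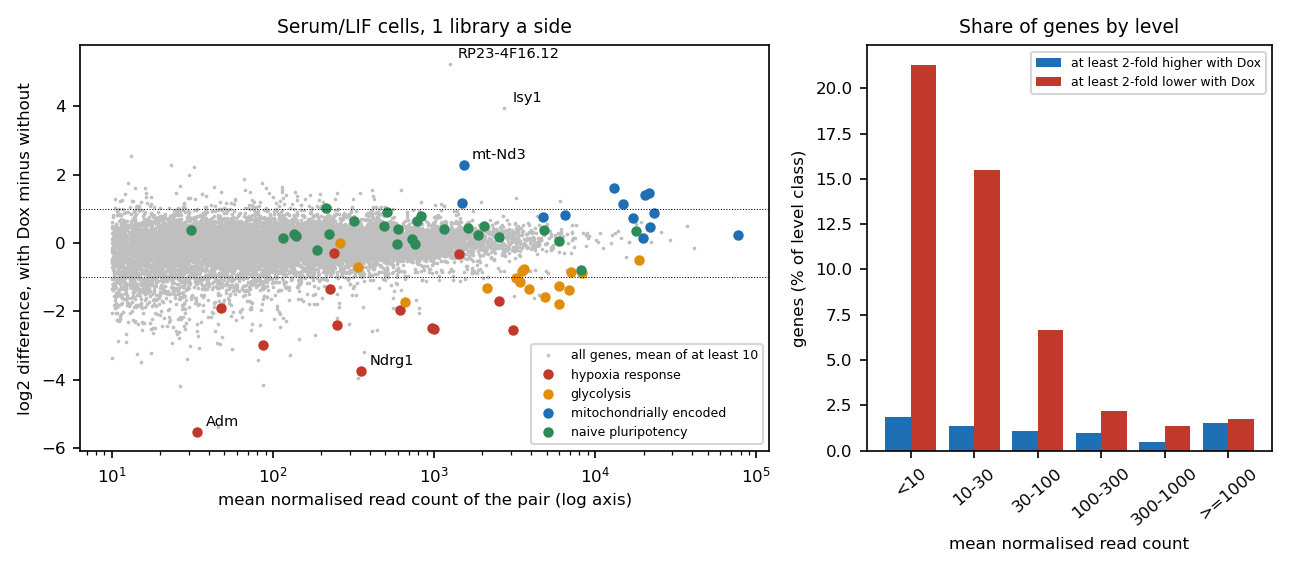
Left, each gene's log2 difference (with Dox minus without, y axis) against its mean normalised read count in the 2 serum/LIF libraries (log x axis), with 4 gene lists in colour and dotted lines at 2-fold. Right, the percent of genes in each level class that were at least 2-fold higher (blue) or lower (red); the red bars go from 21.3% under a mean of 10 to 1.73% at 1000 and above, and the blue bars stay under 2%. Isy1 and RP23-4F16.12 stand apart at the top, hypoxia genes at the bottom.

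Both libraries carried the markers of ESCs. The 6 markers Pou5f1, Nanog, Sox2, Zfp42, Esrrb and Dppa5a summed to 34099 without Dox and 41987 with it, and each was at 991 or more in both. Of the feeder fibroblast markers, 4 of 5 are in the table and summed to 179.6 without Dox and 61.4 with it. Nearly all of that came from Thy1, a surface protein, and Col1a1, a collagen chain, while Col1a2 and Col3a1 had at most 0.71 in either library. Endoderm markers summed to 116.6 and 132.9, neural markers to 316 and 256, and mesoderm markers to 100.7 and 62.6. Members of the first 2 sums went both ways. Gata6 differed by 0.56 and Sox17 by 0.05, but Gata4, Sox7 and Pdgfra by -0.20, -0.03 and -0.20. Tubb3 stood at 292 and 211 and Pax6 at 2.27 and 0.48, but Sox1 at 22.3 and 44.3. In bulk RNA, fewer cells of a type and less RNA per cell cannot be told apart.

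Genes of the hypoxia response were the list with the lowest median. Of the 14 members 13 had a mean of at least 10, and 11 of these were lower with Dox and 0 higher, against 5.56% of all genes lower. The list's median difference was -2.41, beside -0.01 over all genes. This list, like the others below, was chosen with earlier results of these data known, so its counts are a description. The lower members have different roles: secreted signals (Adm, Vegfa), oxygen sensors (Egln1, Egln3), collagen hydroxylases (P4ha1, P4ha2), an oxidase of protein folding (Ero1l), a mitophagy receptor (Bnip3), an mTORC1 inhibitor (Ddit4), and Ndrg1 and Ankrd37. Of these, Vegfa, Egln1, Egln3, P4ha1, P4ha2 and Bnip3 were named after their values were seen.

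The promoters of 3 lower members are shown because they hold the 5-base core that HIF binds. They run from 250 bases before to 50 after the gene start, from RefSeq on GRCm38.p6, all read 5′ to 3′ on the gene's strand, and capitals mark ACGTG or GCGTG on either strand (read there as CACGT or CACGC). Ankrd37 lies at chr8:45999801-46000100 on the minus strand and has 4 matches, Bnip3 at chr7:138909457-138909756 on the minus strand has 5, and Adm at chr7:110627407-110627706 on the plus strand has 2.
Ankrd37: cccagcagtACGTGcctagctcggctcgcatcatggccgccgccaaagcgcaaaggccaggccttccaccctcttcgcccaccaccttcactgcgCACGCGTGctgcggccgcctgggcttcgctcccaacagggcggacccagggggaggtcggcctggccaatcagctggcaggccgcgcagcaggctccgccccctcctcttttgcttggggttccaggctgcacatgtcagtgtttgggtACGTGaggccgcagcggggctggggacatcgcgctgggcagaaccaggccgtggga
Bnip3: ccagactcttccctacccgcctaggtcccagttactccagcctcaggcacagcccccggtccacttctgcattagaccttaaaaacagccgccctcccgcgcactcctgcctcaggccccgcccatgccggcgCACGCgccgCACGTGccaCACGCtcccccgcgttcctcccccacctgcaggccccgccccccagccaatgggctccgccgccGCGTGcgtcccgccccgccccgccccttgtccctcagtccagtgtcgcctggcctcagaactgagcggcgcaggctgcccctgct
Adm: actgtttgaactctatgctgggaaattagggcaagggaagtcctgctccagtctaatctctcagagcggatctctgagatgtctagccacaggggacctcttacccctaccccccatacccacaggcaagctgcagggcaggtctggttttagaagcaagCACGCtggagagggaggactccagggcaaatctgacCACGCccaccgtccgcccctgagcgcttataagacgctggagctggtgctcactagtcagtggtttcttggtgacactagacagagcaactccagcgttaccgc
A run CACGTG counts on both strands and so gives 2 overlapping matches. Of the 11 hypoxia members with a promoter in the RefSeq table, 10 hold at least 1 match and 7 hold ACGTG. Vegfa, a lower member, holds 0, while Pdk1 and Kdm3a, which were under 2-fold, hold 2 and 1. The core in either form is common: 43.8% of all 27025 promoters hold it, 64.4% of the 9417 tested genes with a promoter, and 61.3% of the 550 lower ones. For ACGTG alone these shares were 19.7%, 26.1% and 26.7%. A match is a description of these letters and not a binding site.

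Adm encodes adrenomedullin, a peptide that widens blood vessels, and had the largest difference of any gene with a mean of at least 20. It stood at 67.5 without Dox and 0.48 with it, 297 reads against 2, which is 141-fold lower with a wide counting interval of 38.9 to 1176. Ndrg1, a gene induced by stress and differentiation, stood at 656 and 47.9 (13.7-fold lower, 11.9 to 15.9). Ankrd37, an ankyrin repeat protein, stood at 154 and 18.6 (8.30-fold lower, 6.56 to 10.6). Ero1l, which forms disulfide bonds in the endoplasmic reticulum, was among the abundant genes and stood at 5273 and 899 (5.87-fold lower, 5.67 to 6.08). Counting error is thus small for these genes, apart from Adm.

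The oxygen sensors and collagen enzymes followed. Egln3 stood at 1643 without Dox and 291 with it, and Egln1 at 974 and 252. Bnip3 stood at 1700 and 297, P4ha1 at 419 and 78.1, and P4ha2 at 76.1 and 19.8. Vegfa, the growth factor of blood vessels, was 2.55-fold lower, at 324 and 127. Pdk1, which diverts pyruvate from mitochondria, and Kdm3a, a histone demethylase, were the 2 members past the filter that were under 2-fold, at -0.33 and -0.28. Outside the list, Stc1, the hormone stanniocalcin, stood at 89.6 and 1.19, and Ndufa4l2, a mitochondrial protein, at 659 and 71.9. Both respond to HIF in many cells. They were picked from the largest falls over the table, so their values are a description. Whether other such genes outside the list fell was not tested.

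Glycolysis genes were lower too. Of 16 members 9 were lower with Dox and 0 higher, against 5.56% and 1.01% of all genes, 15 had a negative difference, and the median was -1.09. The glucose transporter Slc2a1 stood at 9307 without Dox and 2685 with it (3.47-fold lower, 3.40 to 3.54), and Slc2a3, the other transporter of the list, at 9969 and 3870. Pfkp, a subunit of the enzyme that commits glucose to glycolysis, stood at 1020.5 and 307, and Pgk1, which makes ATP in the pathway, at 7279 and 2437. The remaining lower members were Ldha, Pfkl, Gpi1, Aldoa and Tpi1, between -1.34 and -1.02. Outside the list, Slc16a3, the lactate exporter, stood at 568 and 153 (3.71-fold lower, 3.40 to 4.05). Pfkm, the muscle-type subunit beside Pfkp and Pfkl, was level at 261 in both libraries. Ldha, Pfkl, Gpi1, Aldoa, Tpi1 and Pfkm were named after their values were seen.

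**Figure D2:**
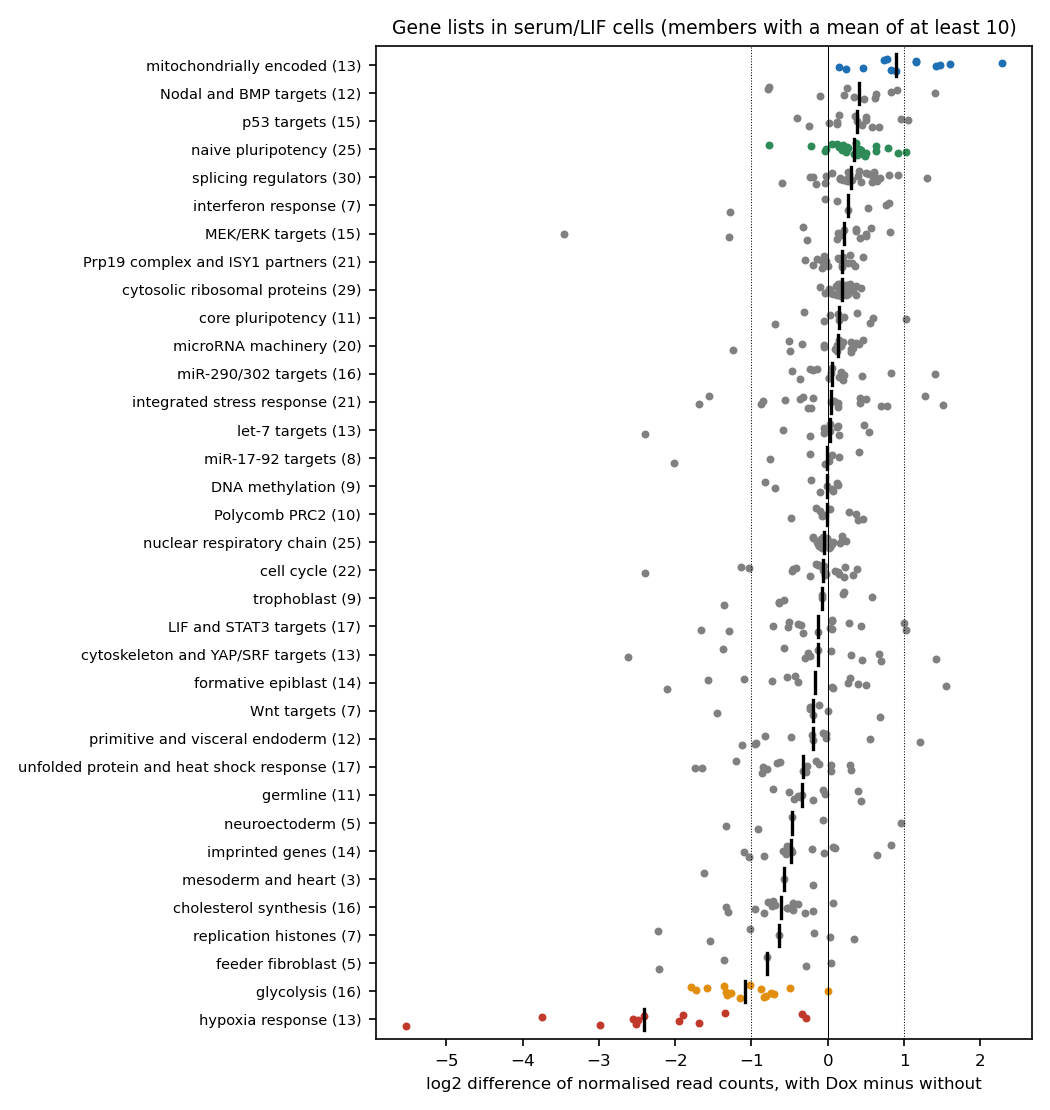
Each point is 1 gene's log2 difference (x axis, with Dox minus without) and each row a gene list, with the number of members that have a mean of at least 10 in brackets, black bars at the list's median and dotted lines at 2-fold; Isy1 is left out of its row. Hypoxia response (median -2.41) and glycolysis (-1.09) lie at the low end and mitochondrially encoded genes (0.89) at the high end, while most other medians lie within 0.5 of 0.

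The other libraries of the line without Dox place these values. Ndrg1 was at 58.5 on day 1 of EB differentiation without Dox, close to the 47.9 of serum/LIF with Dox, and then at 134, 418, 446, 422 and 539 on days 2, 4, 8, 10 and 13. Ero1l was at 831 on day 1 and Bnip3 at 294, beside 899 and 297 in serum/LIF with Dox. Slc2a1 was at 1768 on day 1, 3724 on day 2 and 8297 on day 4. Over the hypoxia list the median level was 656 in serum/LIF without Dox, 216 with Dox, 219 on day 1 and 380 to 539 later. Over the glycolysis list it was 5162, 2502, 1684 and 2572 to 6357. The 2 contrasts with serum/LIF without Dox, by Dox and by day 1, share that 1 library. It was above all 7 others in 5 of 13 hypoxia members and in 8 of 16 glycolysis members, against 13.5% of all genes. The library with Dox was below all 7 without it in 4 hypoxia members and 1 glycolysis member, against 10.3% of all genes.

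**Figure D3:**
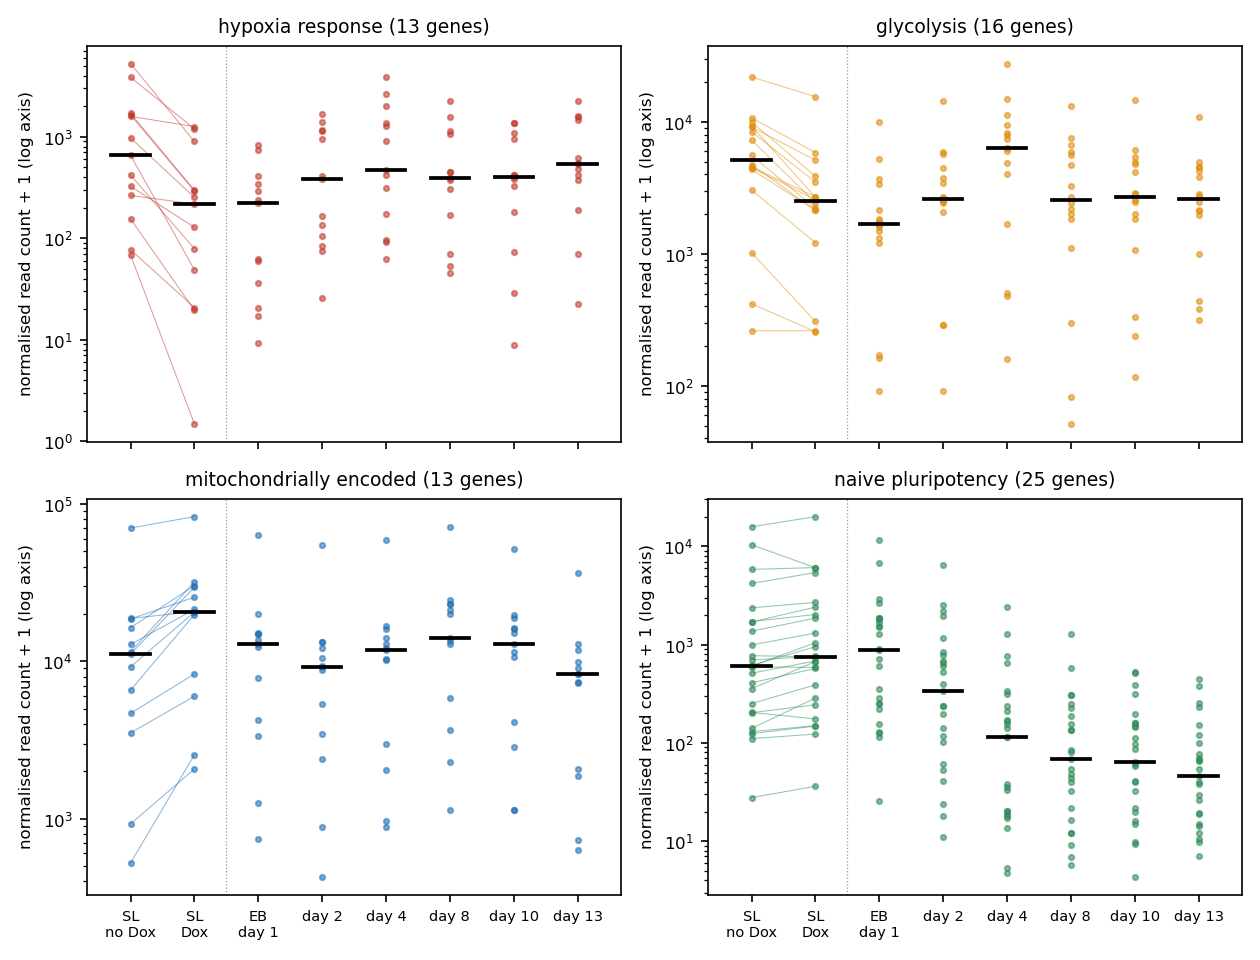
Normalised read count + 1 (log y axis) of every member with a mean of at least 10 in each library of the EB table, for 4 gene lists; SL is serum/LIF, thin lines join a gene's values in the Dox pair, and black bars are medians over genes, whose levels are not comparable between genes because they are not per length. The hypoxia and glycolysis medians are high in serum/LIF without Dox and low with Dox and on EB day 1. The mitochondrial median is highest with Dox. The naive median is highest on EB day 1 and lower on each later EB day.

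RNAs encoded by the mitochondrial genome were higher with Dox. Of 13 members 6 were higher, against 1.01% of all genes, all 13 differences were positive and the median was 0.89. mt-Nd3, a subunit of respiratory complex I, stood at 520 without Dox and 2540 with it (4.89-fold, 4.67 to 5.11). mt-Nd2 and mt-Nd1, also of complex I, stood at 6544 and 19834 and at 11487 and 31960, and mt-Cytb of complex III at 11087 and 29588. The complex I subunits mt-Nd4 and mt-Nd4l followed at 1.15 and 1.16, and mt-Co3 and mt-Co1 of complex IV were lowest at 0.14 and 0.24; these 4 were named after their values were seen. In 12 of 13 genes the level with Dox was above all 7 libraries without it, against 9.13% of all genes. Nuclear copies of mitochondrial sequence can share such reads, so single values are uncertain. By contrast, 0 of the 25 nuclear-encoded respiratory chain genes were higher or lower, and their median was -0.05.

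Genes of naive pluripotency differed little in size but mostly in 1 direction. Of 25 members 1 was higher and 0 lower, against 1.01% and 5.56% of all genes. The difference was positive in 21, against 48.6% of all genes, and the median was 0.34. The higher one was Gbx2, a LIF-responsive homeobox gene, at 140 without Dox and 285 with it. Fbxo15, an F-box gene of ESCs, stood at 355 and 672, Nr0b1, a nuclear receptor, at 604 and 1046, and Tbx3, a T-box factor, at 250 and 390. Esrrb, Klf4 and Nanog, factors of the naive network, had differences of 0.50, 0.44 and 0.41. Klf2 was level at 771 and 753. Tdgf1, the Nodal co-receptor Cripto, had the lowest difference, with 10386 without Dox and 6063 with it. In 13 of 25 members the level with Dox was above all 7 libraries without it, against 9.13% of all genes, although 6 of those 7 are from differentiating cells. The list's median level was 604 in serum/LIF without Dox, 753 with Dox and 884 on EB day 1 without Dox. It was 338 on day 2 and 45.0 on day 13. The contrasts by Dox and by day 1 share the serum/LIF library without Dox.

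Among core pluripotency genes, shared by naive and later cells, Rex2 was the only 1 of 11 to reach 2-fold, at 206 and 418. Rex2 belongs to a family of closely related zinc finger genes, so its count is uncertain. Pou5f1, which encodes Oct4, differed by 0.15, and Dnmt3l, a cofactor of DNA methylation, by -0.69. Of the 17 formative epiblast genes, which mark the state after naive, 14 passed the filter, with 1 higher, 3 lower and a median of -0.16. Over all genes 1.01% were higher and 5.56% lower, and the lower share was 15.5% at a mean of 10 to 30. Foxd3, a forkhead factor, stood at 33.6 without Dox and 100.2 with it (2.98-fold, 2.47 to 3.62). The lower ones were Cdh2, which encodes N-cadherin, at 33.0 and 6.90, Sfrp2, a Wnt antagonist, at 55.9 and 18.1, and Sox3 at 16.4 and 7.14. Otx2, Pou3f1 and Dnmt3b, central factors of that state, had differences of 0.26, -0.38 and 0.06.

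Signalling targets split. Among 17 LIF and STAT3 targets Gbx2 and Socs2, a feedback inhibitor of cytokine receptors, were higher. The immediate early genes Fos and Egr1 were lower, and the list's median was -0.12. Over all genes 1.01% were higher and 5.56% lower. Socs2 stood at 69.5 and 140.5, Fos at 51.1 and 15.5, and Egr1 at 101 and 40.7. Ier3, an early response gene of ERK signalling, was far lower, at 790 and 71.0. The median of the 15 MEK/ERK targets was 0.22, with Ier3 and Egr1 the 2 lower ones. Among 12 Nodal and BMP targets, median 0.41, the Nodal inhibitor Lefty1 was higher, at 65.5 and 175.7 (2.68-fold, 2.34 to 3.09). Lefty2 and Nodal itself stood at 293 and 522 and at 278 and 525, under 2-fold.

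Stress pathways differed from each other. Of 15 p53 targets past the filter 13 had a positive difference, against 48.6% of all genes, with a median of 0.38. Mdm2, the ligase that removes p53, stood at 283 and 589 (2.08-fold, 1.95 to 2.23), and Phlda3, an Akt inhibitor, at 281 and 545. Mdm2 was the only 1 to reach 2-fold, and Phlda3, Cdkn1a and the other members were under it. Among 21 genes of the integrated stress response, which acts through Atf4, 2 were higher and 2 lower, against 1.01% and 5.56% of all genes. Their median was 0.04, and its sign turned on scaling to total reads. Chac1, which degrades glutathione, stood at 70.9 and 203 and Trib3, a pseudokinase, at 184 and 446. Atf4 itself stood at 1981 and 3407, under 2-fold. Ddit4 and Vldlr, a lipoprotein receptor, were lower, at 3852 and 1198 and at 47.3 and 15.5. Ddit4 is also a member of the hypoxia list.

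The unfolded protein and heat shock list had 3 of 17 members lower, against 5.56% of all genes, and a median of -0.32. Hspa1a and Hspa1b, a pair of near-identical heat shock genes whose reads may be split, stood at 113 and 33.3 and at 148 and 46.7. The third, Sdf2l1 of the endoplasmic reticulum, stood at 420.0 and 181. Cholesterol synthesis genes had 15 of 16 negative differences, where 48.6% of all genes had a positive one. Their median was -0.61, and 2 were lower, against 5.56% of all genes. These were Insig1, the sterol sensor that holds back SREBP, at 653 and 260, and Dhcr7, of the last step, at 123 and 49.0. In 14 of 16 members the level with Dox was below all 7 libraries without it, against 10.3% of all genes.

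Partners of the induced protein showed small differences. Of 21 genes of the Prp19 complex and ISY1 partners, Isy1 was the only 1 to reach 2-fold, and the median was 0.19. The shares over all genes were 1.01% higher and 5.56% lower. Among 30 splicing regulators 24 had a positive difference, against 48.6% of all genes, with a median of 0.30. Ptbp2, the neural form of the polypyrimidine tract binder, was the only 1 to reach 2-fold, at 33.2 and 82.9 (a ratio interval of 2.05 to 3.05). The splicing factors Srsf2 and Srsf3 stood at 959 and 1822 and at 998 and 1745. Gene-level counts do not show splice forms. Of 29 cytosolic ribosomal protein genes 27 had a positive difference, against 48.6% of all genes, with a median of 0.18. The median over all genes with a mean of 1000 up was 0.08.

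MicroRNA genes were examined because ISY1 has been tied to their processing. Of 20 genes of the microRNA machinery, Ago4, an Argonaute protein, was the only 1 at 2-fold, at 28.9 without Dox and 11.7 with it. The median was 0.14. The shares over all genes were 1.01% higher and 5.56% lower. Among genes with a mean of 10 to 30, which include Ago4, 15.5% were lower. Among targets of the miR-290 and miR-302 families 16 of 18 passed the filter, Lefty1 was higher, 0 were lower, and the median was 0.05. Targets of let-7 had a median of 0.02 and of miR-17-92 one of -0.01, and each sign turned under at least 1 other scaling. Of these, Ccnd2, a G1 cyclin, was lower at 140 and 25.7, and so was Ccng2, a cyclin that goes with cell cycle arrest, at 176 and 42.9.

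Small RNA libraries of the same 2 conditions give the microRNAs themselves, listed by locus without the arm and with 1 library a side. The column of the library without Dox is headed KH1 where its title says KH2. The 3 mature forms below, of the miR-290 and miR-302 families, share their seed, bases 2 to 8 in capitals. They are from RefSeq on GRCm38.p6, at chr7:3220691-3220712, chr7:3220815-3220837 and chr3:127545275-127545297, all on the plus strand. Whether each target above or each other locus carries this seed is not shown.
miR-294-3p: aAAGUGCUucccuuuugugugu
miR-295-3p: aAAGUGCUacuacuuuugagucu
miR-302b-3p: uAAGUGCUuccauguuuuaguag
As deposited, all 7 loci of the miR-290 family were higher with Dox. miR-294 stood at 5171 and 9314, miR-295 at 3954 and 7087, and miR-290, with the largest ratio of 3.40, at 253 and 860. The column totals were 277427 and 393089, a ratio of 1.42, and with both scaled to the same total 5 of 7 loci were higher, miR-294 and miR-295 at 1.27 each. miR-292, the most abundant at 159455 and 196788, went from 1.23 to 0.871 and miR-291b from 1.37 to 0.964. In the miR-302 family 2 of 4 loci were higher as deposited and 1 of 4 at equal totals, and miR-302b stood at 65.4 and 69.0. The direction of miR-291b, miR-292 and miR-302b thus depends on the scaling, while the other 8 loci kept theirs under both.

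Among the largest rises over the table, apart from Isy1, RP23-4F16.12 and mitochondrial genes, most were weakly expressed. Ahnak2, a large scaffold protein, stood at 10.7 without Dox and 53.8 with it (5.04-fold, 3.67 to 7.05). Sntb1, a syntrophin of the dystrophin complex, stood at 7.27 and 39.3, and Cpz, a carboxypeptidase with a Wnt-binding domain, at 11.6 and 49.0. Fam198b, a Golgi protein, stood at 20.4 and 65.5 (3.20-fold, 2.51 to 4.11). Of higher abundance were Zfhx2, a homeobox zinc finger gene, at 210 and 618, and Nckap1l, a WAVE actin regulator of blood cells, at 54.5 and 173. Clca3b, Jrk and Spata31d1b, the last of a multicopy family and so uncertain, were also among the 15.

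The largest falls beside those named were spread over functions. A2m, a protease inhibitor, stood at 639 without Dox and 40.2 with it (15.9-fold lower, 13.6 to 18.6), and Lbh, a transcription cofactor of the embryo, at 164 and 8.33. Nxph4, a neurexophilin, stood at 234 and 23.3, and Fgfr3, a fibroblast growth factor receptor, at 83.6 and 10.0. H2-Ab1, a chain of the class II antigen-presenting complex, stood at 51.1 and 1.90. The interferon list as a whole had 1 of 7 members lower, against 5.56% of all genes, and a median of 0.27. That member was B2m, the class I light chain, at 142 and 57.6. Cdc42ep2, Ppp1r3c, a glycogen-targeting phosphatase subunit, Kif1a, a kinesin, and Aoc3, an amine oxidase, completed the 15.

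Lineage lists held a few genes at 2-fold, where over all genes 1.01% were higher and 5.56% lower. Among all genes with a mean of 10 to 30 the lower share was 15.5%. The filter was passed by 12 of 19 endoderm, 9 of 12 trophoblast, 5 of 11 neuroectoderm and 3 of 12 mesoderm and heart members. Of the 12 endoderm members 10 had a negative difference, where 48.6% of all genes had a positive one, and the median was -0.20. Nes, the neural progenitor filament, stood at 174 and 68.6, Myl7, a heart myosin chain, at 37.9 and 11.7, and Ascl2, a trophoblast factor, at 37.7 and 14.0. Cubn, an endocytic receptor of visceral endoderm, was higher at 45.5 and 106.7, and Amn, its partner, lower at 30.7 and 13.6. Primitive streak had 2 of 12 members past the filter, and two-cell-like genes 0 of 14. The 5 Zscan4 and Tcstv markers summed to 17.7 without Dox and 34.8 with it, and the highest of them was at 12.4. Replication histones, whose RNAs mostly lack a polyA tail, had 3 of 7 lower, against 5.56% of all genes and 15.5% of those with a mean of 10 to 30. DNA methylation and Polycomb PRC2 genes had 0 members at 2-fold.

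Against the range of the 7 libraries without Dox, 46 of the 142 higher genes (32.4%) were above all of them with Dox, beside 9.13% of all genes. Of the 784 lower genes 217 (27.7%) were below all 7, beside 10.3%. The library without Dox was itself above all 7 others in 241 of the lower genes (30.7%, beside 13.5%) and below them in 44 of the higher genes (31.0%, beside 13.7%). These shares are partly fixed by the choice of genes on a difference between these 2 libraries, and they are given as a description.

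The EpiLC pairs share no library with the serum/LIF pair and give a separate view of the same induction. Isy1 stood at 423 without Dox and 3038 with it at 24 h, and at 397 and 912, 558 and 1109, and 418 and 708 at 48, 72 and 96 h. Of the 142 genes higher in serum/LIF, 65 (45.8%) were higher with Dox at all 4 EpiLC hours, beside 15.7% of the 14010 genes compared, and 3 (2.11%) were lower at all 4. Their median differences were 0.25, 0.23, 0.88 and 0.99 in order of hour, beside medians of all genes between -0.05 and 0.05. Of the 754 lower genes measured there, 169 (22.4%) were lower at all 4 hours, beside 15.5%, and 67 (8.89%) were higher at all 4. Their medians were 0.08, -0.20, -0.49 and -0.61. The separation was thus larger at 72 and 96 h than at 24 h, while the Isy1 difference was largest at 24 h.

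**Figure D4:**
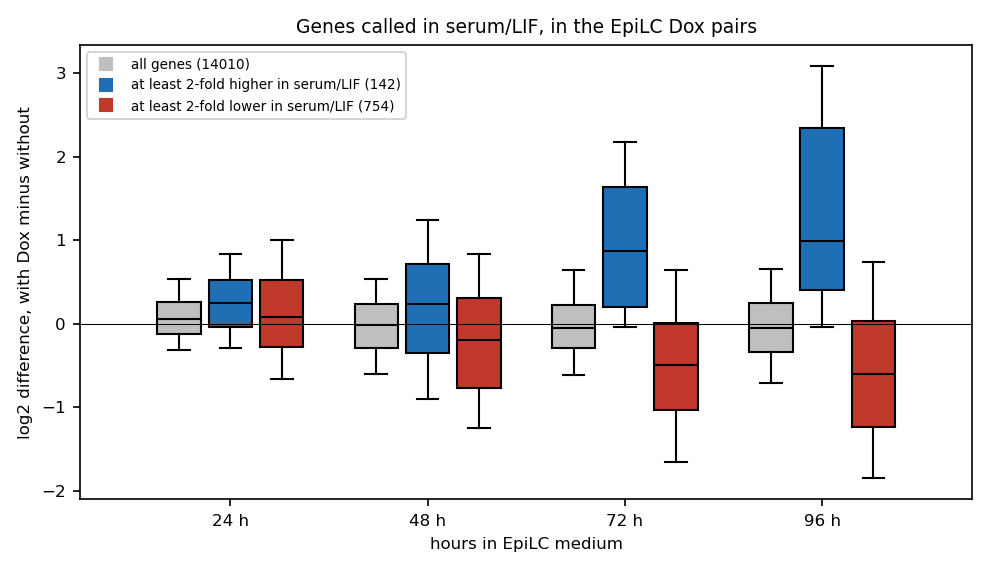
Log2 differences with Dox minus without (y axis) in the EpiLC pairs at 4 hours (x axis), for all genes, for genes at least 2-fold higher and for genes at least 2-fold lower with Dox in serum/LIF; boxes span the middle quartiles with the median as a line, and whiskers the 10th to 90th percentile. The medians of the higher genes go from 0.25 at 24 h to 0.99 at 96 h and those of the lower genes from 0.08 to -0.61.

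Over the 4 EpiLC pairs with hour as a block, limma with Benjamini-Hochberg adjustment called 456 of 16117 genes, 287 higher (1.78%) and 169 lower (1.05%). Of the serum/LIF higher genes 20 (14.1%) passed as higher, beside 1.83% of the genes compared, and 1 passed as lower. Of the lower genes 27 (3.58%) passed as lower, beside 1.13%, and 10 as higher. These calls rest on few hours: without the 48 h pair or without the 72 h pair 0 genes passed at all, with 3210 and 1924 at an unadjusted p under 0.05, and without the 24 h pair 1122 did. From the other side, 62.6% of the 257 genes that rose in EpiLCs had a positive difference in serum/LIF and 21.4% of the 159 that fell, beside 48.6% of all genes.

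Genes that passed in EpiLCs in the same direction as in serum/LIF were of several kinds. The induced gene, Isy1, did not pass (1.45 ± 0.31, limma adjusted p = 0.0542). RP23-4F16.12, mt-Nd3, mt-Nd2, mt-Nd1 and mt-Cytb rose. So did Ahnak2 (1.35 ± 0.24, limma adjusted p = 0.042) and Fam198b (1.62 ± 0.18, limma adjusted p = 0.0318). Each ± is the SE of the limma fit to the 4 pairs, whose variance is shared in part across genes. Also higher were Anxa3, an annexin, Klf3, a repressor of the KLF family, and the homeobox gene Nkx6-3 (2.86 ± 0.52, limma adjusted p = 0.044). Nkx6-3 stood at 184 and 510 in serum/LIF. Among those lower in both was Cnn1, the smooth muscle protein calponin, at 31.6 and 4.29 in serum/LIF and -2.46 ± 0.27 in EpiLCs (adjusted p = 0.0318). Slc16a3 fell by 0.86 ± 0.10 (adjusted p = 0.0318), and Fgf15, a growth factor of the neural plate, fell by 1.85 ± 0.25 (adjusted p = 0.0345). The rest of the 10 largest, of 27 lower in both, were H2-K1, a class I chain with close paralogs, H2-DMa, which loads class II, Sfrp2, Syt5, a synaptotagmin, Rem2 and Rasd2, small GTPases, and Epor, the erythropoietin receptor. These genes were picked for passing in both media, so their values are a description.

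The lists that stood out in serum/LIF behaved unequally in EpiLCs. Mitochondrially encoded genes had 12 of 13 members higher at all 4 hours, with 9 that passed. Naive genes had 16 of 25 higher at all 4 hours, with 9 that passed and medians of 0.31, 0.78, 1.45 and 2.12. The glycolysis list had 9 of 16 lower at all 4 hours, with 4 that passed as lower and 1, Pfkp, as higher. In the hypoxia list 2 of 14, Ankrd37 and Bnip3, were lower at all 4 hours and 1, Vegfa, was higher, which was also the only member to pass, and the medians were 0.14, -0.19, -0.05 and -0.48. Of 17 cholesterol synthesis genes 10 were lower at all 4 hours and 3 passed as lower. Of 16 p53 targets 9 were higher at all 4 hours and 4 passed, with Mdm2 at 0.77, 0.57, 0.88 and 1.36 in order of hour (limma adjusted p = 0.035). Of 30 splicing regulators, mostly higher in serum/LIF, 0 were higher and 9 lower at all 4 hours. Over all genes 15.7% were higher and 15.5% lower at all 4 hours. Whether a list's difference itself differs between the media was not tested.

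In size, the 6.57% of genes at least 2-fold apart in the serum/LIF pair compares with 2.45%, 5.90%, 9.56% and 11.3% in the EpiLC pairs by hour. Between successive EB libraries without Dox it was 6.66% from day 1 to day 2 and 9.23% to 18.2% in the later steps. Depth differed between these libraries, from 6.16 M reads (EpiLC 24 h with Dox) to 56.02 M (EB day 1). The part of counting error in the shares was not tested. By genome, 13144 of the tested genes (93.3%) matched RefSeq. The lower share was 3.99% in the fifth of genes with the shortest span and 7.42% in the fifth with the longest, and the medians were 0.11 and -0.12. By chromosome it lay between 4.45% on chromosome 5 and 8.08% on chromosome 9.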

How the data were processed

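PolyA RNA was sequenced after Trizol extraction and a TruSeq stranded kit, per the labels' protocols. Bowtie and the builds GRCm38 and mm9 are named, without version or role, per the submitters' processing notes; the counter, the annotation and the scaling are not given in the sources used here. The deposited values are of the unit signal, gene counts that the authors scaled by a factor of each library, as the steps between low values show. Undoing the factor gave whole reads (within 0.1 reads) for 100% of values in all 8 libraries of the EB table and in the 24 h and 48 h EpiLC pairs. In the 72 h and 96 h EpiLC libraries 75.6% to 100% came out whole, and these were not treated as recovered. The microRNA values deposited by the authors are signal on an unstated scale.

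Differences were taken on log2(value + 1), with a mean of at least 10 for a call and at least 20 for a gene named by its size (Python 3.11.15, scipy 1.17.1). Ratio intervals are exact conditional binomial from whole reads. The EpiLC pairs were fitted with limma 3.58.1 in R 4.3.3 with hour as a block, an intensity trend and a mean of at least 1, two-sided, Benjamini-Hochberg at 0.05; the block pairs libraries of the same hour, and the spread over hours stands in for replicates, with 3 residual degrees of freedom. edgeR 4.0.16 was run on whole reads of the 24 h and 48 h pairs as an alternative added after seeing the data. The steps were tested on simulated data. Nothing says whether libraries came from separate cultures.

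Named were the 15 largest rises and falls, the 10 largest calls in each direction shared with EpiLCs, the members of 8 lists on pluripotency, stress, splicing and microRNAs, and up to 4 members of each of the other lists, of 37 in all; 1 gene that the rule names is not reported here. Members and lists were chosen with earlier results of these data known. Lines whose names became dates (22) were kept and not named, and 24 columns of other samples were not used.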

Additional observations from a re-analysis of the deposited data

Results flagged for a closer look

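These 7 genes, all at least 2-fold apart in serum/LIF, had the opposite sign with Dox at all 4 EpiLC hours, a difference between media that was not tested. Lower in serum/LIF and higher in EpiLCs were Pfkp (-1.73), a glycolytic enzyme, Fos (-1.66), an immediate early factor, Hist1h1c (-1.55), a linker histone, Vldlr (-1.55), a lipoprotein receptor, Ascl2 (-1.36), a trophoblast factor, and Cdkn2c (-1.13), a cell cycle inhibitor. Socs2 (1.00), the cytokine receptor inhibitor, was higher in serum/LIF and lower in EpiLCs. Pfkp is the only 1 of these 7 that passed in EpiLCs (limma adjusted p = 0.0426). The 7 are not the whole set of such genes. Of the 754 lower genes measured in EpiLCs, 67 (8.89%) were higher at all 4 hours, beside 15.7% of all genes compared. Of the 142 higher genes, 3 (2.11%) were lower at all 4 hours, beside 15.5%.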

How the results depend on the processing

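The counts of 142 higher and 784 lower genes stayed within 1.5 times under 3 other scalings and 2 other pseudocounts. They became 93 and 274 with a mean of at least 50, 728 and 1888 at 1.5-fold, and 64 and 405 when the counting interval had to lie beyond 2-fold; lower genes became 1315 with a mean of at least 1 and 1352 with no filter. The other scalings shifted all genes by at most 0.05 in size. Of 88 named calls under 5 settings each, 0 of 440 values reversed and 30 moved outside the counting interval. Serum/LIF calls outside the range without Dox by 1.5-fold were 22 above and 88 below. Hypoxia (11), glycolysis (9) and mitochondrial (6) counts moved to no more than 12, 9 and 6 and no fewer than 9, 8 and 6. The EpiLC passes among serum/LIF calls, 20 higher and 27 lower with hour as a replicate block, became 0 and 0 without the block (50 and 66 at an unadjusted limma p under 0.05), 0 and 0 without the trend (62 and 181), 0 and 0 without a filter (76 and 190), 13 and 16 with a pseudocount of 0.1, and 10 and 9 with edgeR (51 and 78). Leaving out 1 hour gave 0 to 33 and 0 to 120. All EpiLC calls, 456, became 0 without block, trend or filter, 233 with a pseudocount of 0.1, 187 with edgeR and 66 without the 96 h pair. At equal totals miR-291b (0.964), miR-292 (0.871) and miR-302b (0.745) turned to lower. The cause of these moves was not tested. No paired analysis was possible in serum/LIF because each side has 1 library, and 1 read is worth 0.227 or 0.238 units, so genes with values of a few units cannot be resolved.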
